A study of Mus musculus with 768 samples.

Results

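The gene module described here holds 35 genes of the dividing cell, 17 used in S phase, when DNA is copied, and 18 used in G2 and M phase, when the copies are checked and pulled apart. They were chosen by name, and all 35 were among the 23997 gene names of the count tables. Each single mouse mammary cell was scored by how many of them it transcribed. The N1ICD-EGFP group came from WAP-CRE; R26-N1ICD-EGFP mice, in which Cre switches on the active intracellular part of Notch1 with EGFP. The tdTomato control group came from WAP-CRE; R26-tdTomato mice, in which Cre switches on a red reporter. Both groups thus carried Cre driven by the Wap promoter. Wap is a milk protein gene that alveolar luminal cells express in pregnancy and lactation, so the design aims to mark cells with such a history. The sorted plates also held cells of other classes, as given below. All mice were C57BL/6, and inguinal glands were taken after a lactation that the labels give as 3 to 4 months. GFP-positive and tdTomato-positive cells were sorted into 384 wells per group, 1 plate each, and sequenced by Smart-Seq2, which makes a full-length library from each well.

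Since no animal is named in the labels, a plate counted as 1 sample. No value below has a replicate, no p-value is given, and intervals cover counting error only. Intervals on reads treat all reads as independent, though PCR copies are counted, so they are too narrow. The genotype and the plate cannot be told apart.

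A cell was kept if it had 50000 reads and 1000 genes or more, which left 283 cells of the N1ICD-EGFP plate and 334 of the control plate. Their reads summed to 97346457 in N1ICD-EGFP and 80949038 in control cells. The median was 348469 reads in N1ICD-EGFP cells and 241888 in control cells. A median of 2075 genes was found per N1ICD-EGFP cell and 3103.5 per control cell when every cell was thinned to 50000 reads. The plates were clustered with all listed cell cycle genes left out, so that the module had no part in the classes. Luminal progenitor/secretory-like cells were the largest class in both plates, with 194 N1ICD-EGFP and 195 control cells. The sort was for reporter-positive cells, yet 48 N1ICD-EGFP and 24 control cells were immune-like.

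In S phase the Mcm2 to Mcm7 proteins form the ring-shaped helicase that unwinds DNA, Cdc6 loads it and Gins2 belongs to the complex that activates it. Pcna is the sliding clamp of the polymerases, Fen1 trims lagging-strand flaps and Rpa2 covers single-stranded DNA. Tyms, Rrm1 and Rrm2 make DNA building blocks, Ung removes uracil, and Uhrf1 and Hells maintain methylation on the new strand. In G2 and mitosis Cdk1 with the cyclins Ccna2, Ccnb1 and Ccnb2 drives entry, while Aurka, Aurkb, Tpx2, Birc5, Bub1b, Cenpe, Cenpf, Kif11, Kif20b and Prc1 build, check and divide the spindle. Cdc20 activates the ligase that ends mitosis, Top2a untangles DNA, Hmgb2 is a chromatin protein, and Mki67 coats mitotic chromosomes and is the usual marker of proliferating cells. Most mammary luminal cells of the resting gland are known to be outside the cycle.

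The S phase and mitotic members are known to be switched on at different times, through E2F sites and through paired CCAAT and CHR elements. The promoters of Mcm5, Ccnb2 and Cdc20 are shown as 1 S phase and 2 G2 and M phase examples whose reads are given cell by cell below. The sequences are the 250 bases before the start that the RefSeq promoter table lists for each gene (GRCm38.p6, the assembly behind mm10), written 5′ to 3′ on the gene's strand. For Mcm5 that start, 75109509, lies 41 bases inside the gene's span, and distances below are counted from the listed start. They lie at chr8:75109259-75109508 on the + strand, chr9:70421555-70421804 on the - strand and chr4:118437344-118437593 on the - strand. Capitals mark matches to the E2F letters in Mcm5 (TTTCCCGC, TTTGGCGC, TTTCGCGC or TTTGCCGC), to the CHR letters in Ccnb2 and Cdc20 (TTTGAA or TTCGAA), and to CCAAT in all 3.
Mcm5: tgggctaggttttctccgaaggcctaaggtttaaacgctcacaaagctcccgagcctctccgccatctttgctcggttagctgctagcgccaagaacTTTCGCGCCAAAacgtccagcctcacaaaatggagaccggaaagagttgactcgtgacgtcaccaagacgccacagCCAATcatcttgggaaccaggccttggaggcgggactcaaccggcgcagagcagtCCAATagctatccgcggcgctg
Ccnb2: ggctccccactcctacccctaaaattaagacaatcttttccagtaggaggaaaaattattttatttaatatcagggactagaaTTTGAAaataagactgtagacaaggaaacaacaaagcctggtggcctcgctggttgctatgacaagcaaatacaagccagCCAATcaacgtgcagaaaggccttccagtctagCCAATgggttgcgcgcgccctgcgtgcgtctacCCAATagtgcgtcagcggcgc
Cdc20: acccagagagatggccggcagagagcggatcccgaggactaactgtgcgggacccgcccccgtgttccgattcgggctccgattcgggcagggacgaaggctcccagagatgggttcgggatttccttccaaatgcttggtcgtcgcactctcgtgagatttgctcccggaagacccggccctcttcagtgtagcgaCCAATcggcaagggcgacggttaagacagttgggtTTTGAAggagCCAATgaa
In Mcm5 the E2F letters matched on both strands and the 2 matches overlapped, 153 to 146 and 149 to 142 bases before the start. In Cdc20 the CHR letters stood 18 to 13 bases before the start, between 2 CCAAT boxes. In Ccnb2 the CHR letters stood 167 to 162 bases before the start. Its 3 CCAAT boxes all lay nearer to the start, at 87 to 83, 54 to 50 and 21 to 17 bases before it.

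The promoter table held 30 of the 35 members, 15 of each phase. It did not hold Mcm4, Gins2, Tpx2, Aurkb and Ccna2. With 1 promoter per gene, the first listed, searched on both strands, the E2F letters were in 5 of 15 S phase promoters (Mcm5, Mcm6, Mcm7, Hells and Cdc6), in 1 of 15 G2 and M phase promoters (Cdk1) and in 1.91% of all 27025 promoters. A CCAAT box with the CHR letters in the same window was in 8 of 15 G2 and M phase promoters, in 2 of 15 S phase promoters and in 6.21% of all. These 8 were Mki67, Top2a, Cdk1, Bub1b, Kif11, Cdc20, Ccnb2 and Hmgb2. CCAAT alone was in 13 of 15 G2 and M phase promoters, in 10 of 15 S phase promoters and in 34.5% of all, and the CHR letters alone were in 8, in 3 and in 17.4%. The order and spacing of the CCAAT and CHR letters were not considered. Letters at or after the listed start were not searched, so a pair that reaches past it would be missed. A match describes letters only and does not show that a factor binds there.

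Few cells of either plate held many members. The score of a cell was the number of the 35 members with at least 1 read after thinning to 50000 reads. It had a median of 2 and ran from 0 to 18 in N1ICD-EGFP cells, against a median of 3 and a range of 0 to 10 in control cells. The mean was 2.39 ± 2.40 in N1ICD-EGFP and 2.80 ± 1.69 in control cells (SD over 283 and 334 cells of 1 plate each). A score of 0 was found in 39 N1ICD-EGFP cells (13.8%) and 19 control cells (5.69%), and a score of 3 or less in 79.9% of N1ICD-EGFP and 70.96% of control cells. The typical N1ICD-EGFP cell thus held no more members than the typical control cell, and the plates differed at the upper end. In both plates the score was higher in cells with more genes detected, with a Spearman coefficient of 0.47 over the 283 N1ICD-EGFP and 0.36 over the 334 control cells, which share their plate and its depth.

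A score of at least 10 was reached by 6 N1ICD-EGFP cells, 2.12% with a Clopper-Pearson 95% interval of 0.782 to 4.56%, and by 1 control cell, 0.299% with an interval of 0.00758 to 1.66%. The 2 intervals overlap. The cut marks a range of the score and not a cell type. Just below it, at 8 or 9, lay 4 N1ICD-EGFP and 3 control cells, just above it, at 10 or 11, lay 2 N1ICD-EGFP cells and 1 control cell, and above 11 lay 4 N1ICD-EGFP cells and no control cell. Without thinning, 9 N1ICD-EGFP and 2 control cells reached 10. The highest unthinned score, 21, belonged to N1ICD-EGFP well K24, which had 7598 genes. That cell held 12 of its members with 1 or 2 reads each, and its thinned score was 7.

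**Figure D1:**
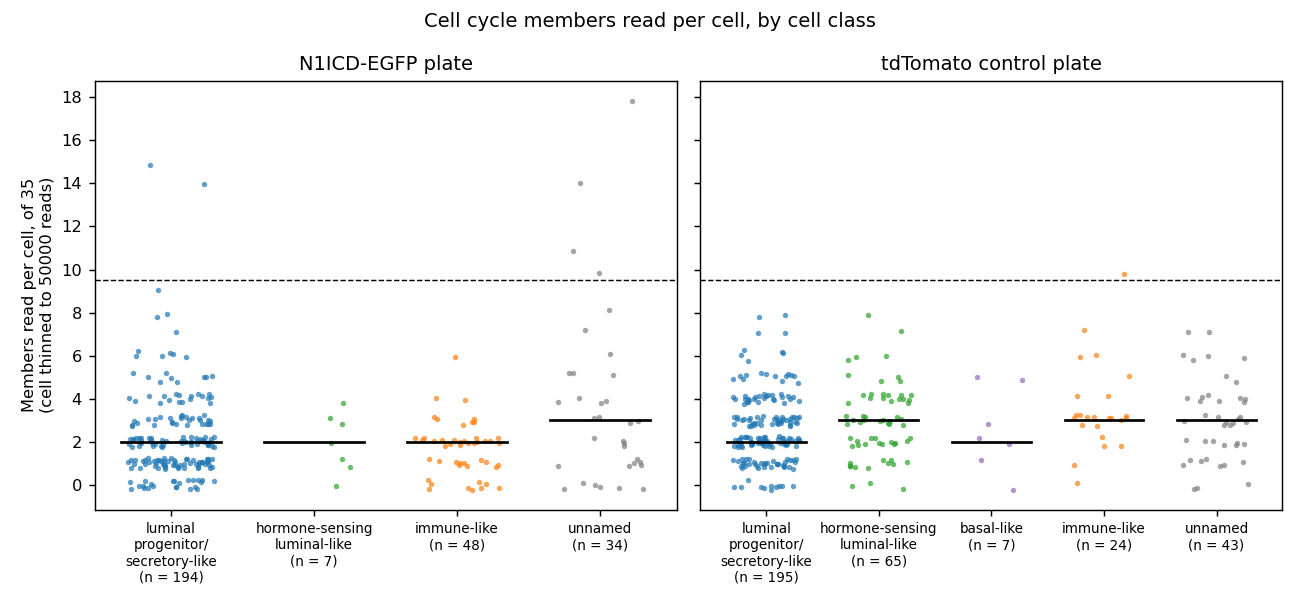
Members read per cell out of 35, after thinning each cell to 50000 reads, in the N1ICD-EGFP plate (left) and the tdTomato control plate (right). Each point is a cell, spread slightly so that points do not hide each other, black lines are class medians and the dashed line marks the cut below a score of 10. Above the line are 2 luminal progenitor/secretory-like and 4 unnamed N1ICD-EGFP cells, and 1 immune-like control cell.

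The 6 high-scoring N1ICD-EGFP cells fell in 2 places. Wells K8 and N12, with scores of 15 and 14, were luminal progenitor/secretory-like, 2 of 194 cells of that class (1.03%, interval 0.125 to 3.67%). Wells D7, E8, J22 and P14, with scores of 18, 14, 11 and 10, made up 4 of the 34 cells of an unnamed cluster (11.8%, interval 3.30 to 27.5%). That cluster was led by Fam180a, Krt14, Stra6, Col6a2 and Col6a1 and had 6 raised luminal progenitor markers. It received no class name because Krt14, a basal keratin, was among its 10 leading genes and no progenitor marker was. None of 48 immune-like N1ICD-EGFP cells scored 10 or more, which allows a share of up to 6.25% (3 counts of the total, as for every count of 0 below), and none of 7 hormone-sensing luminal-like cells did.

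The control plate had its 1 high-scoring cell, well B19, among 24 immune-like cells (4.17%, interval 0.105 to 21.1%). None of 195 luminal progenitor/secretory-like control cells scored 10 or more, which allows a share of up to 1.54%. None of 65 hormone-sensing luminal-like cells did either, which allows up to 4.62%. The same held for 7 basal-like cells and for 43 cells of an unnamed cluster with a median of 74422 reads. The interval of 0.125 to 3.67% in luminal progenitor/secretory-like N1ICD-EGFP cells reaches below this limit of 1.54% in control cells. A difference in the share of high-scoring cells of this class was not detectable with these numbers of cells.

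The class of the high-scoring N1ICD-EGFP cells depended on the clustering. With both plates clustered together all 6 were luminal progenitor/secretory-like, 6 of 222 N1ICD-EGFP cells (2.70%) and 0 of 238 control cells. With the cell cycle genes kept in the clustering all 6 shared an unnamed cluster of 38 cells. In each of the 6 cells Epcam, an epithelial adhesion molecule, had 1601 to 12101 CPM (reads scaled to the total of the cell), Krt8, a luminal keratin, 703 to 1678 CPM, and Wfdc18, a secreted WAP-domain protein, 1410 to 10423 CPM. They held 5 to 8 of 8 epithelial markers and none of 6 leukocyte markers, and Ptprc, Cd79a and Cd3e were at 0 in all 6. Each also held reads of 1 to 3 macrophage and dendritic cell markers, at 179 CPM in K8 and up to 12.4 CPM in the others. Secretory alveolar markers summed to 2878 CPM in K8, 894 in E8, 67.1 in J22, 5.57 in D7, 4.45 in N12 and 0 in P14. Hormone-sensing luminal markers summed to 374 CPM in E8, 159 in D7, 157 in P14, 15.3 in J22 and 0 in K8 and N12. Basal markers summed to 2135 CPM in D7, 253 in E8, 104 in K8, 4.13 in P14 and 0 in N12 and J22. Wfdc18 was on no marker list, and other luminal genes were not read in every cell. The keratin Krt18 was at 0 in P14. Of the progenitor markers, Kit was at 0 in N12, and Elf5 was at 0 in D7, N12 and P14. Krt14 was read at 2135 CPM in D7 and was at 0 in the other 5.

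Control well B19 was a different kind of cell. It had 2397 CPM of Ptprc, the leukocyte antigen CD45, all 6 leukocyte markers, 3 of 9 T and NK cell markers, no Epcam and 1 of 8 epithelial markers. Its leading genes against the other control cells, members aside, were led by Il2 and included Itgae, Il17rb and Ptgdr2. These are known from T cells and innate lymphoid cells. Its Cd3e was at 0, and Cd74, on the macrophage and dendritic cell list, had 1718 CPM. The T and NK cell markers together had 1040 CPM, and no leukocyte type is assigned. B19 scored 10 with 8 S phase and 2 G2 and M phase members. It had no read of Mki67 or Top2a, and 35 reads of Cdk1.

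The high-scoring N1ICD-EGFP cells split by phase. N12 held 14 G2 and M phase members and no S phase member, and K8 held 13 and 2. E8 held 12 S phase and 2 G2 and M phase members. With 5647 genes it exceeded the plate median by over 3 median absolute deviations, a mark of a possible doublet, and 5 high-scoring N1ICD-EGFP cells remained without such cells. P14 held 8 and 2, and J22 held 7 and 4. D7 held both kinds, 11 S phase and 7 G2 and M phase members, the highest score of the series. By cluster name, both luminal progenitor/secretory-like cells were therefore on the G2 and M phase side. Each of the 4 unnamed cells had more S phase than G2 and M phase members. These names did not fully follow the markers of the single cells. Of 10 luminal progenitor markers K8 held reads of 8 and N12 of 2. Of the unnamed cells, E8 and J22 held reads of 7 each, P14 of 4 and D7 of 3.

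Mki67 (chromosome 7, 135689784 to 135716450) had 2160 reads in N12, 884 in K8, 186 in D7, 1 in P14 and none in E8 and J22. Top2a (chromosome 11, 98992947 to 99024199) had 1016 reads in N12, 376 in D7, 369 in J22, 271 in E8, 109 in K8 and none in P14. The proliferation marker was thus near or at 0 in 3 of the 6 high-scoring cells, and Top2a in 1. Cdk1 (chromosome 10, 69335146 to 69352912), the mitotic kinase, was read in all 6, with 695 reads in N12, 157 in D7, 151 in E8, 81 in K8, 72 in J22 and 20 in P14. Hmgb2 (chromosome 8, 57511843 to 57515999) was also read in all 6, with 4 to 52 reads.

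The spindle and anaphase members were confined among these 6 cells to N12 and K8 with few exceptions. Cenpf had 1636 reads in N12 and 469 in K8, Cenpe 377 and 797, and Kif11 489 and 299. None of the other 4 cells had a read of these 3 genes. Cdc20 (chromosome 4, 118432901 to 118437343) had 263 reads in N12 and 138 in K8, and likewise none in the other 4. The B cyclins parted the pair, since Ccnb1 (chromosome 13, 100778739 to 100786486) had 255 reads in N12 and none in K8, and Ccnb2 had 160 reads in K8 and none in N12. Aurka had 410 reads in N12 alone. Exceptions were Tpx2 with 315 reads, Birc5 with 101 and Bub1b with 5 in D7, and Prc1, the midzone bundler, with 264 reads in J22. Kif20b and Aurkb had no read in any of the 6.

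The S phase side held different helicase genes in different cells. Mcm6 had 786 reads in J22, 751 in D7, 267 in E8 and 20 in P14. Mcm5 (chromosome 8, 75109468 to 75128439) had 505 reads in J22, 300 in P14, 130 in E8 and none in D7 and N12, and it was read in K8 at 464 CPM. K8 thus held reads of all 3 genes whose promoters are shown, while N12 held Cdc20 alone, E8, J22 and P14 held Mcm5 alone, and D7 held none of them. Pcna (chromosome 2, 132249286 to 132253180) had 259 reads in J22, 220 in D7, 177 in P14 and 50 in E8, and none in N12 and K8. Tyms was read in J22 (591 reads), D7 and E8, and Fen1 in P14 alone (170 reads). Rrm2 (chromosome 12, 24708254 to 24714146) had 353 reads in D7 and none in the other 5. A gene at 0 in a Smart-Seq2 cell may have been missed in capture, so an absence in a single cell is not evidence that the gene was off.

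**Figure D2:**
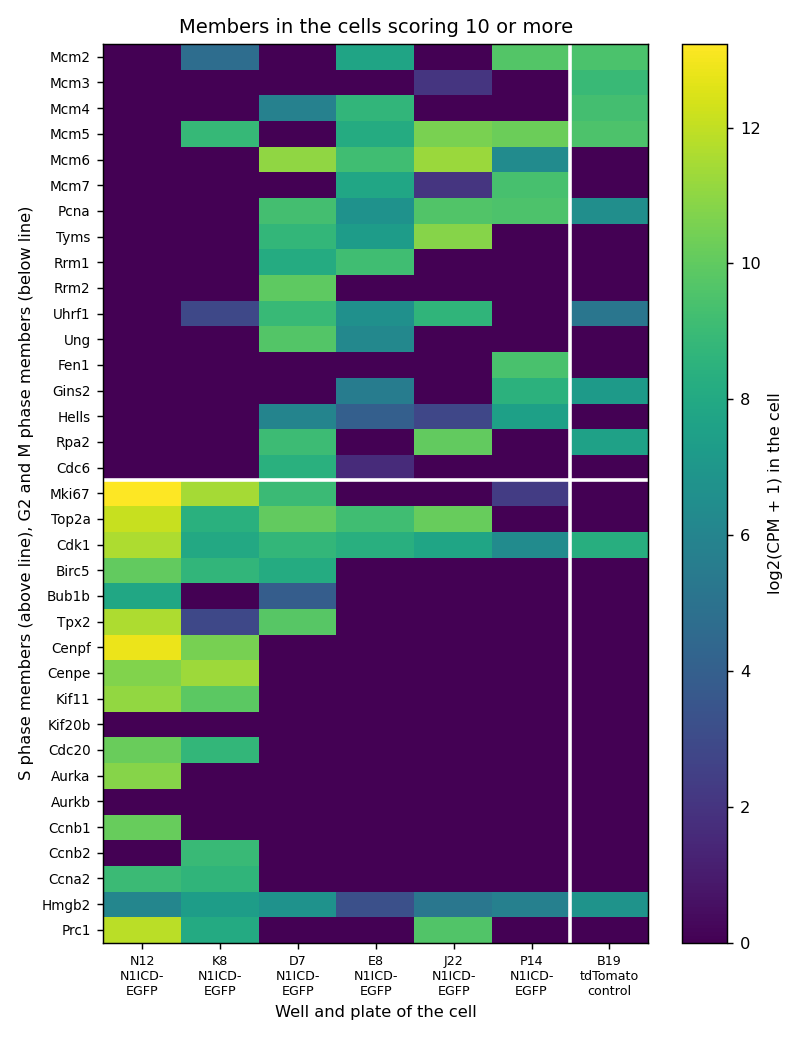
Level of each of the 35 members, as log2(CPM + 1) in the cell, in the 6 N1ICD-EGFP cells and the 1 control cell that scored 10 or more. Rows above the white line are S phase members and rows below it G2 and M phase members. N12 and K8 are filled in the lower block, E8 and P14 mostly in the upper one, D7 and J22 in parts of both, and Cdk1 and Hmgb2 are above 0 in every cell.

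Most cells of both plates held few members. Over all kept cells, no G2 and M phase member was read in 174 N1ICD-EGFP cells (61.5%) and 175 control cells (52.4%), and no S phase member in 62 N1ICD-EGFP cells (21.9%) and 38 control cells (11.4%). Of the N1ICD-EGFP cells below the cut none held more than 4 G2 and M phase or 8 S phase members, and of the control cells below it none held more than 5 and 8. At least 5 G2 and M phase members were found in 3 N1ICD-EGFP cells (N12, K8 and D7) and in 1 control cell, well O12. At least 3 were found in 10 N1ICD-EGFP and 18 control cells. Of these 18, 10 belonged to the shallow unnamed control cluster, O12 among them, where 74.4% of 43 cells held at least 1 G2 and M phase member, against 38.5% of the 195 luminal progenitor/secretory-like control cells.

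The most widely read members were Pcna and Mcm6 among the S phase genes and Hmgb2 among the others. After thinning, Pcna was read in 99 of 283 N1ICD-EGFP cells and 171 of 334 control cells (51.2%), and without thinning in 40.6% and 57.5%. Its summed level was close in both plates, at 51.0 CPM in N1ICD-EGFP (exact Poisson interval 49.6 to 52.5) and 51.4 CPM in control cells (49.9 to 53.0), so no order is read from the shares. Mcm6 was read in 24.4% of N1ICD-EGFP and 31.4% of control cells, and Hmgb2 in 18.4% and 20.4%. The median share over the 17 S phase members was 7.07% of N1ICD-EGFP and 8.38% of control cells, and over the 18 G2 and M phase members 2.65% and 2.84%. Every member had a read in both plates.

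Summed over all kept cells, the module stood higher in the N1ICD-EGFP plate. S phase members summed to 606 CPM in N1ICD-EGFP and 405 CPM in control cells, and G2 and M phase members to 219 and 62.5 CPM. For single genes the ratio is log2((N1ICD-EGFP CPM + 1)/(control CPM + 1)), a gene counts as measured at 5 CPM or more in either plate, and as higher or lower past 1.5 times. Of 12021 measured genes 22.5% were higher and 16.7% lower in the N1ICD-EGFP plate, with a median ratio of 0.07. Of 16 measured S phase members 9 were higher and 1 lower, with a median of 0.77. Of 14 measured G2 and M phase members 11 were higher and 1 lower, with a median of 2.20. These counts stood above the background for both lists, and they compare 2 plates, not replicated conditions. Of the higher G2 and M phase members, only Mki67 reached 5 CPM in control cells. The others, and Uhrf1, Ung and Hells, counted as measured through the N1ICD-EGFP plate alone. Rrm2 and Aurka, the lower ones, counted through the control plate alone. Kif20b and Hmgb2, at 5 CPM or more in both plates, were neither. The filter largely fixes the direction of genes that pass in 1 plate, so the counts are no test. Without the immune-like cells the medians were 0.53 for the S phase and 2.43 for the G2 and M phase members. CPM is not corrected for gene length, so levels are compared between plates and not between genes.

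The values without the 7 high-scoring cells describe where the reads lay and are no test, since those cells were chosen by these same members and 6 of them came from the N1ICD-EGFP plate. Without them 22.2% of 11999 genes were higher and 16.7% lower. The median of the G2 and M phase members was 0.43, with 3 higher and 2 lower of the 7 that remained measured. The median of the S phase members was 0.33, with 7 higher and 2 lower of 16. The 6 N1ICD-EGFP cells had held 69.9% of all G2 and M phase reads of their plate (14935 of 21364) and 12.98% of the S phase reads (7655 of 58992). The control cell had held 0.928% and 1.02% of those of its plate. For 13 of the 18 G2 and M phase members over 50% of the N1ICD-EGFP reads lay in the 6 cells, against 2 of the 17 S phase members, Rrm2 and Cdc6. A single cell weighed most, since the G2 and M phase median was 0.83 without N12 and 0.72 without N12 and K8.

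Mki67 had 35.3 CPM in N1ICD-EGFP (34.1 to 36.5) and 6.95 CPM in control cells (6.39 to 7.55), 5.08 times as much. Its log2 ratio was 2.19. Mki67 had 62.9% of its N1ICD-EGFP reads in N12 alone, so its interval treats dependent reads as independent. It was read in 16 N1ICD-EGFP and 17 control cells. Of its 3436 N1ICD-EGFP reads 94.03% lay in the high-scoring cells, and without those it had 2.15 CPM in N1ICD-EGFP and 6.96 CPM in control cells. Top2a had 22.1 CPM in N1ICD-EGFP and 0.605 CPM in control cells, a log2 ratio of 3.85, the highest of the module. It was read in 9 N1ICD-EGFP and 3 control cells, and 99.4% of its N1ICD-EGFP reads lay in the high-scoring cells.

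Cdk1 had 14.5 CPM in N1ICD-EGFP and 3.78 CPM in control cells (log2 ratio 1.69), with 83.5% of the N1ICD-EGFP reads in the high-scoring cells and values of 2.44 and 3.35 CPM without them. Ccnb1 was read in 1 N1ICD-EGFP cell, N12, and in 4 control cells with 20 reads in all. At 2.62 CPM in N1ICD-EGFP and 0.247 CPM in control cells it did not count as measured. Neither did Ccnb2, Ccna2, Aurkb and Cdc6. Cdc20 had 17.3 CPM in N1ICD-EGFP and 3.46 CPM in control cells (log2 ratio 2.04). Of its N1ICD-EGFP reads 23.8% lay in the high-scoring cells, and without them 13.5 CPM in N1ICD-EGFP and 3.46 CPM in control cells. These reads came from few cells too, 9 in N1ICD-EGFP and 10 in control. Kif11 and Bub1b, 9.55 and 2.02 times as high in N1ICD-EGFP over all cells, were also past 1.5 times without the high-scoring cells, with log2 ratios of 1.44 and 0.79. Kif11 then had 5.59 CPM in N1ICD-EGFP and 1.42 CPM in control cells, and Bub1b 7.69 and 4.03 CPM. Both counted as measured through the N1ICD-EGFP plate alone, so their direction is no test. Over all cells Kif11 was read in 7 N1ICD-EGFP and 5 control cells, and Bub1b in 14 and 14. Well K12 held 32.2% of the N1ICD-EGFP Bub1b reads. Hmgb2 had 7.25 CPM in N1ICD-EGFP and 6.21 CPM in control cells and was within 1.5 times, as was Kif20b with 17.3 and 12.8 CPM.

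Other mitotic members also had most of their N1ICD-EGFP reads in the high-scoring cells. Cenpf had 23.2 CPM in N1ICD-EGFP and 3.41 CPM in control cells, and Cenpe 12.8 and 1.41 CPM. Without the high-scoring cells neither reached 5 CPM, with Cenpf at 1.66 CPM in N1ICD-EGFP and 3.41 CPM in control cells, and Cenpe at 0.75 and 1.41 CPM. Prc1 had 13.4 CPM in N1ICD-EGFP and 1.41 CPM in control cells, and 89.5% of its N1ICD-EGFP reads lay in the high-scoring cells. For Tpx2 that share was 75.2% and for Birc5 77.4%.

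Of the S phase reads a smaller share lay in these cells. Rpa2 had 66.6 CPM in N1ICD-EGFP and 19.96 CPM in control cells (log2 ratio 1.69, and 1.61 without the high-scoring cells). Rrm1 had 81.4 and 42.2 CPM (0.93 and 0.89), and Mcm7 51.7 and 27.0 CPM (0.91 and 0.86). Uhrf1 and Hells had the highest ratios, 2.05 and 2.33, with 9.20 and 15.5 CPM in N1ICD-EGFP and 1.47 and 2.27 CPM in control cells. Uhrf1 had 39.4% of its N1ICD-EGFP reads in the high-scoring cells, and without them 5.69 CPM in N1ICD-EGFP and 1.42 CPM in control cells, a log2 ratio of 1.47. One well, O7, held 65.1% of the Hells reads of the N1ICD-EGFP plate. Mcm5 had 30.4 CPM in N1ICD-EGFP and 17.2 CPM in control cells (log2 ratio 0.78). With 36.7% of its N1ICD-EGFP reads in the high-scoring cells, its ratio was 0.26 without them. Tyms moved likewise, with log2 ratios of 0.75 and 0.26. Mcm2 and Ung were higher as well, with log2 ratios of 0.79 and 1.29. Mcm3, Mcm6, Fen1, Gins2 and Pcna were within 1.5 times in both settings. Mcm4 had 32.8 CPM in N1ICD-EGFP and 48.1 CPM in control cells, a log2 ratio of -0.54 and of -0.59 without the high-scoring cells, which is just past 1.5 times.

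One member of each phase went against its list. Rrm2, the small subunit of ribonucleotide reductase, had 3.63 CPM in N1ICD-EGFP and 9.40 CPM in control cells, a log2 ratio of -1.17. All 353 of its N1ICD-EGFP reads lay in D7. Of its control reads 79.5% lay in 1 cell, well G10, whose score was 3. Aurka (chromosome 2, 172356190 to 172370886), the centrosomal spindle kinase, had 4.99 CPM in N1ICD-EGFP and 12.2 CPM in control cells, a log2 ratio of -1.14. N12 held 84.4% of its N1ICD-EGFP reads. The control reads were spread over 31 cells, and no cell held more than 10.7% of them.

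**Figure D3:**
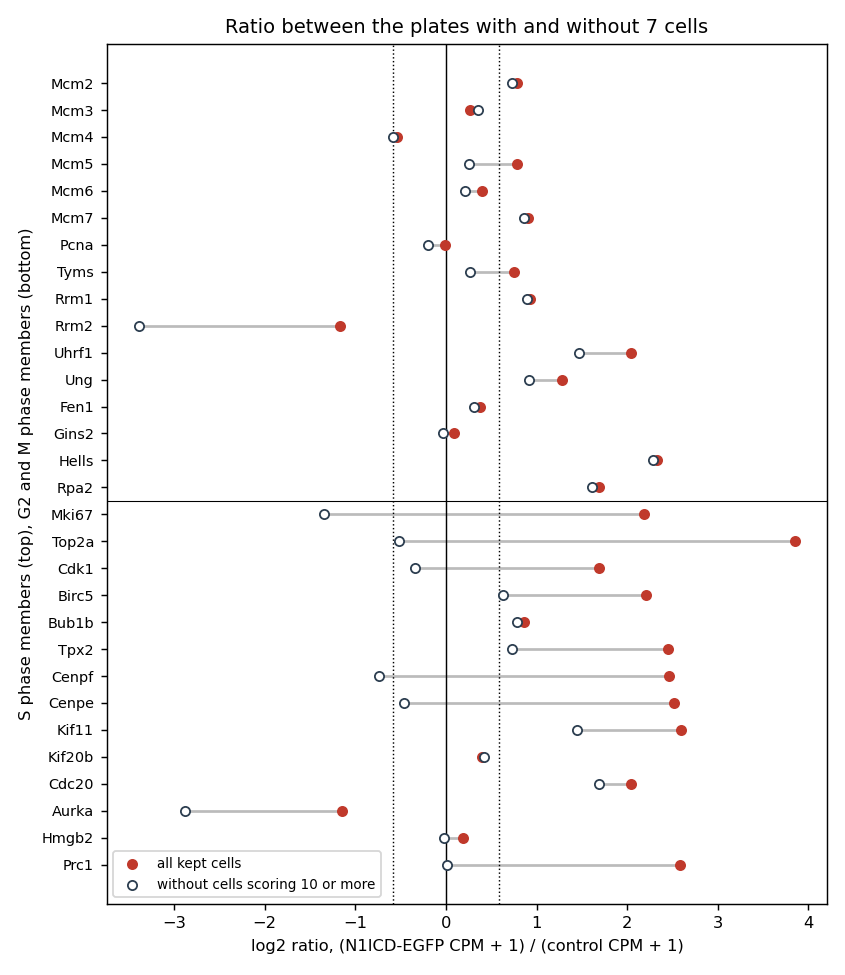
Log2 ratio of the summed levels, (N1ICD-EGFP CPM + 1) over (control CPM + 1), for the 30 members at 5 CPM or more in either plate, with all kept cells (filled) and without the 7 cells scoring 10 or more (open). Dotted lines mark 1.5 times and the horizontal line separates S phase members (top) from G2 and M phase members (bottom). Top2a, at 3.85 with all cells, and Mki67, at 2.19, lie below 0 without these cells, while Rpa2, Rrm1 and Mcm7 hardly move.

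Within the luminal progenitor/secretory-like cells, 194 in N1ICD-EGFP and 195 in control, 24.3% of 11176 genes were higher and 14.8% lower. Of 15 measured G2 and M phase members 14 were higher and none lower, with a median log2 ratio of 2.31, and Hmgb2 was the 1 that was neither. Only Mki67, Cdk1, Cenpf, Kif20b and Hmgb2 reached 5 CPM in control cells of the class. The others counted as measured through the N1ICD-EGFP cells alone, where they were high, so their direction is no test. Aurka was among the 14, at 6.56 CPM in N1ICD-EGFP and 1.62 CPM in control cells of the class. Of 14 measured S phase members 3 were higher and 2 lower, with a median of 0.06, beside 0.13 over all genes. Without K8 and N12, the 2 high-scoring cells of the class, the G2 and M phase median was -0.19, with 3 higher and 2 lower of 7, and the S phase median was 0.07. Mki67 had 48.4 CPM in these N1ICD-EGFP cells and 5.39 CPM in the control cells, and Pcna 41.6 and 53.8 CPM. The S phase median of this class was thus near that of all genes. S phase members summed to 1162 CPM in the unnamed N1ICD-EGFP cluster, 628 CPM in the immune-like and 525 CPM in the luminal progenitor/secretory-like N1ICD-EGFP cells, against 515 and 487 CPM in the immune-like and luminal progenitor/secretory-like control cells. Basal-like control cells had 287 CPM and the unnamed control cluster 238 CPM. Hormone-sensing luminal-like cells were lowest in each plate, at 204 CPM in N1ICD-EGFP and 235 CPM in control cells. That class held 7 N1ICD-EGFP and 65 control cells, so the plates differ in how many such cells they hold, and its part in the summed ratios was not tested.

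The G2 and M phase result differed between well columns 1 to 12 and 13 to 24. Plate position cannot be told apart from where the few high-scoring cells lay. N12, K8, D7 and E8 lay in well columns 1 to 12, with 144 N1ICD-EGFP cells, and J22 and P14 in columns 13 to 24, with 139. In columns 1 to 12 the G2 and M phase median was 2.97 and the S phase median 0.92. In columns 13 to 24 they were -0.22 and 0.58, and Mki67, Cdk1, Cenpf, Cenpe and Kif11 had negative log2 ratios there.

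Cell cycle genes outside the module were read in the same cells. After thinning, 40 other mitosis genes were represented by 26 in N12, 22 in D7, 10 in J22, 8 in K8, 7 in E8 and 4 in P14. The median over all cells was 3 in N1ICD-EGFP and 4 in control, and no cell below the cut held more than 9 in N1ICD-EGFP and 10 in control. Of 33 other replication and origin genes D7 and J22 held 15 each, E8 10, K8 5, P14 4 and N12 3, against at most 10 in the N1ICD-EGFP and 12 in the control cells below the cut. N12, D7 and J22 thus lay outside the range of the other cells of their plate on at least 1 list, while K8, E8 and P14 lay within it on both. B19 held 8 mitosis and 6 replication genes, within the range of the other control cells.

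**Figure D4:**
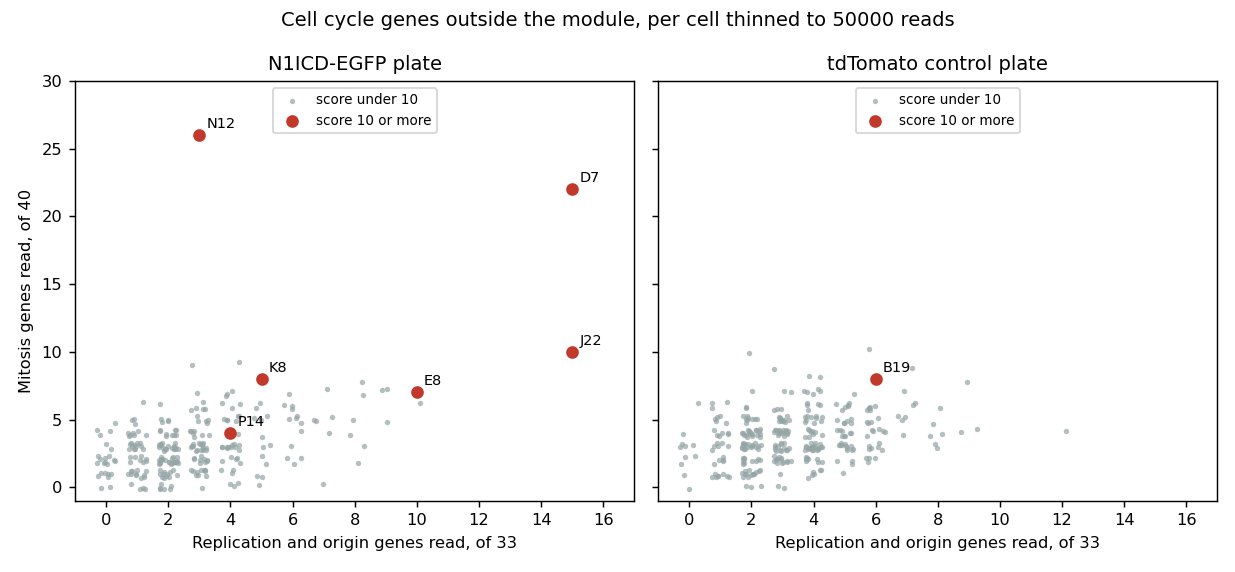
Number of 33 replication and origin genes (horizontal) and of 40 mitosis genes (vertical) read per cell thinned to 50000 reads, none of them a member, in the N1ICD-EGFP plate (left) and the tdTomato control plate (right). Red points are the cells with a module score of 10 or more, named by well, and grey points, spread slightly, are the others. N12 and D7 stand apart with 26 and 22 mitosis genes, and B19 lies among the other control cells.

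As sums over the plate, 16 of 26 measured replication and origin genes were higher and 1 lower in N1ICD-EGFP, with a median log2 ratio of 0.84, and 12 of 24 higher and 2 lower without the high-scoring cells (0.66). Clspn, a checkpoint adaptor, Gins3, a partner of Gins2, and Cdt1, which loads the helicase with Cdc6, had the highest ratios, and Cdc7, the kinase that fires origins, was lower at 8.89 CPM in N1ICD-EGFP and 16.99 CPM in control cells. Gins3 had 9.11 CPM in N1ICD-EGFP and 1.72 CPM in control cells with no N1ICD-EGFP read in a high-scoring cell. Of 24 measured mitosis genes 15 were higher and 1 lower, with a median of 1.06, and of 17 without the high-scoring cells 9 and 1 (0.64). Casc5, a kinetochore scaffold, Ckap2 and Kif22 led the list, and Spc25, a kinetochore subunit, was lower. Ckap2 and Kif22 had 86.0% and 86.7% of their N1ICD-EGFP reads in the high-scoring cells. Clspn, Gins3, Casc5, Ckap2 and Kif22 counted as measured through the N1ICD-EGFP plate alone, and Spc25 through the control plate alone. The filter largely fixes the direction of such genes, so the counts of both lists are no test. Over all measured genes 22.5% were higher and 16.7% lower, and without the high-scoring cells 22.2% and 16.7%.

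The genes that control the cycle stood nearer to the background. Of 19 measured 6 were higher and none lower, beside 22.5% and 16.7% of all measured genes. The median of the list was 0.23, and 0.22 without the high-scoring cells. Foxm1, the transcription factor of mitotic genes, had 11.7 CPM in N1ICD-EGFP and 2.20 CPM in control cells, E2f2, an activating E2F, 10.1 and 1.99 CPM, and Cdkn2c, an inhibitor of the G1 kinases, 43.4 and 13.6 CPM. Cdkn2c was read in 60 N1ICD-EGFP and 39 control cells, Foxm1 in 10 and 4, and E2f2 in 16 and 8. Foxm1 and E2f2 counted as measured through the N1ICD-EGFP plate alone, so their direction is no test.

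The genes most raised in the 6 N1ICD-EGFP cells over the other cells of their plate, members left out, are a description of cells chosen by a related score. Among them were Kif23, Cenpk, Ckap2l, Kif20a, Cenpw, Racgap1, Diap3, Ncapd3 and C330027C09Rik. Kif23 and Racgap1 are partners in cytokinesis, Kif20a acts at the same step, Cenpk and Cenpw are centromere proteins and Ncapd3 is a condensin subunit. Kif23 had 339 CPM in the 6 cells and 3.04 CPM in the others, with reads in 3 of the 6.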

How the data were processed

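The authors deposited 1 table of raw counts per plate, with genes in rows and wells in columns. Smart-Seq2 adds no molecular identifiers, so PCR copies are counted. Reads were aligned with STAR to mm10, per the submitters' processing notes. The read counter, its version, the annotation and the strand setting were not given in the sources used here, so reads of overlapping genes cannot be told apart. Of 24490 rows, 492 with a repeated name were added to the row of that name, and eGFP was kept out.

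Wells with under 50000 reads or 1000 genes were left out, 101 in the N1ICD-EGFP and 50 in the control plate. Sums by plate were scaled to CPM, with a pseudocount of 1 in ratios. For scores and shares each cell was thinned to 50000 reads. No doublets were called in sorted wells, and an alternative left out cells with genes over the plate median by 3 median absolute deviations. Each plate was clustered with Leiden (scanpy 1.11.5, leidenalg 0.10.2, Python 3.11.15; 2000 variable genes, 15 components, 15 neighbours, resolution 0.8, seed 0) without 135 cell cycle genes, members included. A cluster was named from at least 3 raised markers, each 1 log2 unit above the mean over clusters and read in at least 20% of its cells, unless more markers of another class were among its 10 leading genes, or it was shallow with none of its own there. 1 marker, Adgre1, was not used here. Scaling alternatives used edgeR 4.0.16.

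The members, lists, markers and motifs were chosen with earlier results of these data known. All 35 members are accounted for. Given by cell were Pcna, Mcm5, Rrm2, Mki67, Top2a, Cdk1, Ccnb1, Cdc20, Hmgb2 and members past 1.5 times against their list. From each other list up to 3 genes per direction were named, and per plate the 10 genes most raised in high-scoring cells among those at 20 CPM or more and read in at least 50% of them. 1 of these genes of the N1ICD-EGFP plate is not reported here, and 4 of the control plate are named. Wells and members that the rule does not name were chosen after their values were seen. Scoring and ratios were tested on simulated data.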

Additional observations from a re-analysis of the deposited data

Results flagged for a closer look

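The eGFP row of the count tables took no part in the scores or sums. In the N1ICD-EGFP plate 85 of 283 kept cells held more than 2 eGFP reads, and 2 was the most that any control cell held. Of the 6 high-scoring N1ICD-EGFP cells, well K8 held 43 eGFP reads and well E8 held 25, both above the control level, and wells D7, N12, J22 and P14 held none. K8 was luminal progenitor/secretory-like with 13 G2 and M phase members, and E8 was in the unnamed cluster with 12 S phase members.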

How the results depend on the processing

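The share of high-scoring N1ICD-EGFP cells stayed between 1.06% (at least 5 of 18 G2 and M phase members) and 3.53% (at least 8 members) in all alternatives. The control share was 0 in well columns 1 to 12, at 12 or more members, at 2 reads per member and, chosen after seeing the data, with a read of Mki67 or Top2a. The share of luminal progenitor/secretory-like N1ICD-EGFP cells was 0 in columns 13 to 24 and with cell cycle genes kept in the clustering. The S phase median was no longer past 1.5 times in columns 13 to 24 (0.58), without immune-like cells (0.53), without high-scoring cells (0.33) and in luminal progenitor/secretory-like cells alone (0.058), and lay between 0.59 and 0.92 otherwise. The G2 and M phase median was -0.22 in columns 13 to 24 and 0.43 without high-scoring cells. It was 1.25 at 100000 reads and 2000 genes, a filter that N12 does not pass, and, chosen after seeing the data, 0.83 without N12 and 0.72 without N12 and K8. It lay between 1.44 and 2.97 otherwise. In columns 13 to 24 the log2 ratio turned round for Mki67 (-1.38), Cdk1 (-0.35), Cenpf (-1.17), Cenpe (-0.28) and Kif11 (-0.12). The cause was not tested. Other scalings moved both medians by under 0.1. A count of 0 (3 counts of the total) allows a share of up to 1.06% of the 283 N1ICD-EGFP and 0.898% of the 334 control cells. No paired analysis was possible because wells of the same name hold unrelated cells and each group is 1 plate.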
